A study of Mus musculus with 9 samples.

Results

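The proteasome genes described here are the 46 rows of the deposited count table, of 24756 in all, whose symbol begins with Psma, Psmb, Psmc, Psmd, Psme or Psmf and a digit and is not marked as a pseudogene. The proteasome is the large protease that degrades proteins tagged with ubiquitin. Its 20S core stacks rings of alpha subunits, which gate the channel, around rings of beta subunits, of which Psmb5, Psmb6 and Psmb7 carry the active sites. A 19S regulatory particle on the core recognises the ubiquitin, removes it and, with a ring of ATPases, unfolds the substrate. Interferon and cells of the immune system favour a variant core, the immunoproteasome, in which Psmb8, Psmb9 and Psmb10 replace Psmb5, Psmb6 and Psmb7 and which changes the peptides made for presentation on MHC class I molecules.

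The 3' ends of mRNA were sequenced from a mouse acute myeloid leukaemia line, made by transducing fetal liver cells with a pair of retroviral vectors. The vector MSCV-Luc2-IRES-MLL-AF9 expresses the MLL-AF9 fusion constitutively in every group. The other vector, TRE-tight-DsRED-IRES-FLT3-ITD, makes FLT3-ITD, a receptor kinase that signals without ligand, only in doxycycline. Cells stayed in doxycycline at 1 µg/mL (ON) or were washed with PBS and grown without it for 24 h (OFF24) or for 48 h (OFF48), with 3 libraries in each group. ON and OFF cells therefore differ in the drug and, as described, in the wash, as well as in the transgene. The effects of these cannot be told apart here. The labels do not state whether replicates were separate cultures, so p-values reflect only how these libraries vary, which may be technical.

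The shallowest library, OFF48 replicate 2, held 1329296 counts and the deepest, ON replicate 2, held 4038456. A count of 0 allows up to 0.737 to 2.25 CPM (read counts scaled to library size with TMM factors) in a library, for counting error only. The mouse Flt3 gene had 2 to 10 counts per library, and vector transcripts end outside it, so it checks nothing about the transgene. Myeloid markers of the line summed to medians of 2883, 5105 and 6587 CPM in ON, OFF24 and OFF48, and 15 monocyte and macrophage markers to 1616, 2337 and 3493 CPM. Both sums moved with the groups, and their part in the proteasome results was not tested. The members of the second list did not all rise: of 11 tested, 7 had risen and 0 had fallen at 24 h, and 6 had risen and 4 had fallen at 48 h. Lymphoid markers summed to at most 2.15 CPM in any library and erythroid markers to less than that, with 4 of 8 erythroid genes at 0 throughout. Hepatocyte and stromal markers summed to at most 6.71 CPM. Megakaryocyte, mast cell and basophil markers, 2 of 7 at 0 throughout, summed to 15.5 to 20.0 CPM in ON, 25.7 to 29.5 CPM in OFF24 and 9.75 to 18.7 CPM in OFF48, higher in OFF24 than in either other group, and their part was likewise not tested. In bulk RNA, fewer cells of a type and less RNA per cell cannot be told apart. ON replicate 2 and OFF48 replicate 2 stood apart together: their deviations from their group means correlated at 0.406 across genes, which are not independent. Where leaving out both libraries, an alternative chosen after seeing the data, changes the call of a proteasome gene, its value without them is given.

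Of the 46 genes, 45 had enough counts to be tested. Psmb11, a core subunit of the thymus cortex, had 1 count in all, in ON replicate 3. The 45 included Psmc3ip, a cofactor of meiotic recombination that shares only the symbol pattern and is no proteasome subunit. They also included Psme2b, a near-identical copy of the activator subunit Psme2. In every library Psme2b had 86.3 to 97.7% as many counts as Psme2, and the last 400 bases of their transcripts are nearly the same, so the values of this pair are uncertain. A further 11 of the 46 share at least 100 bases of their 3' end at 95% identity with other annotated genes, mostly unnamed gene models that are not rows of the table. They are Psma3, Psma4, Psma5, Psmb3, Psmb5, Psmb11, Psmc1, Psmd1, Psmd2, Psmd11 and Psme1, and the sources used here do not say how their reads were assigned. The 3' ends of 4 genes, Psmb7, Psmc3, Psmc3ip and Psme1, overlap a gene on the opposite strand, from which their reads cannot be told apart without the strand setting.

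Most proteasome genes were lower after doxycycline was withdrawn. At 24 h, 23 of the 45 tested genes had fallen and 1, Psmb9, had risen (edgeR quasi-likelihood test, adjusted p under 0.05). Over all 10215 tested genes 17.4% had fallen and 17.8% had risen, 35.3% in either direction. At 48 h, 31 had fallen and again Psmb9 alone had risen, against 23.9% fallen and 23.4% risen of all tested genes, 47.4% in all. The median log2 fold change of the 45 was -0.42 at 24 h and -0.60 at 48 h, while that of all tested genes was 0.03 and 0.01. All 3 OFF24 libraries lay below all 3 ON libraries for 31 of the 45, which held for 23.8% of tested genes, and all 3 OFF48 libraries did so for 31, against 27.0%. None had all OFF24 libraries above ON (25.1% of tested genes), and only Psmb9 had all OFF48 libraries above ON (25.6%). Without ON replicate 2 and OFF48 replicate 2, 30 and 33 had fallen. Most falls were under 2-fold: only Psmd3 and Psme3 fell by at least 2-fold at 24 h, and Psma4, Psma8, Psmd3, Psmd7, Psmd12 and Psme3 did at 48 h.

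Most of the genes that fell encode constitutive subunits of the core and of the 19S particle. Of the 31 constitutive subunits of the 20S core and the 19S particle, 22 had fallen at 24 h and 27 at 48 h, and none had risen, with median log2 fold changes of -0.51 and -0.68. Of the 14 other tested genes, 1 had fallen and 1 had risen at 24 h, and 4 had fallen and 1 had risen at 48 h, with medians of -0.12 and -0.24. These 14 include Psmc3ip, which is no subunit, and Psme2b, the copy of Psme2. Of all tested genes 17.4% had fallen and 17.8% had risen at 24 h, and 23.9% and 23.4% at 48 h. The calls at the 2 times shared 22 genes, which is 22 of the 23 fallen at 24 h and 22 of the 31 fallen at 48 h. Both comparisons use the same ON libraries. Added over their members, the 11 non-ATPase subunits of the 19S particle stood at 62.2% and 58.0% of their ON level at 24 and 48 h, and the ATPases at 69.4% and 64.3%. The alpha ring stood at 78.9% and 64.9% and the constitutive beta ring at 74.7% and 67.0%. The summed immunoproteasome subunits stood at 108% and 103%, but their members differed. By the fitted fold changes Psmb9 stood at 153% and 149% of ON, Psmb8 at 93.5% and 80.7%, and Psmb10 at 83.5% and 94.8%. These counts and sums are descriptions, and the difference between classes was not tested.

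**Figure D1:**
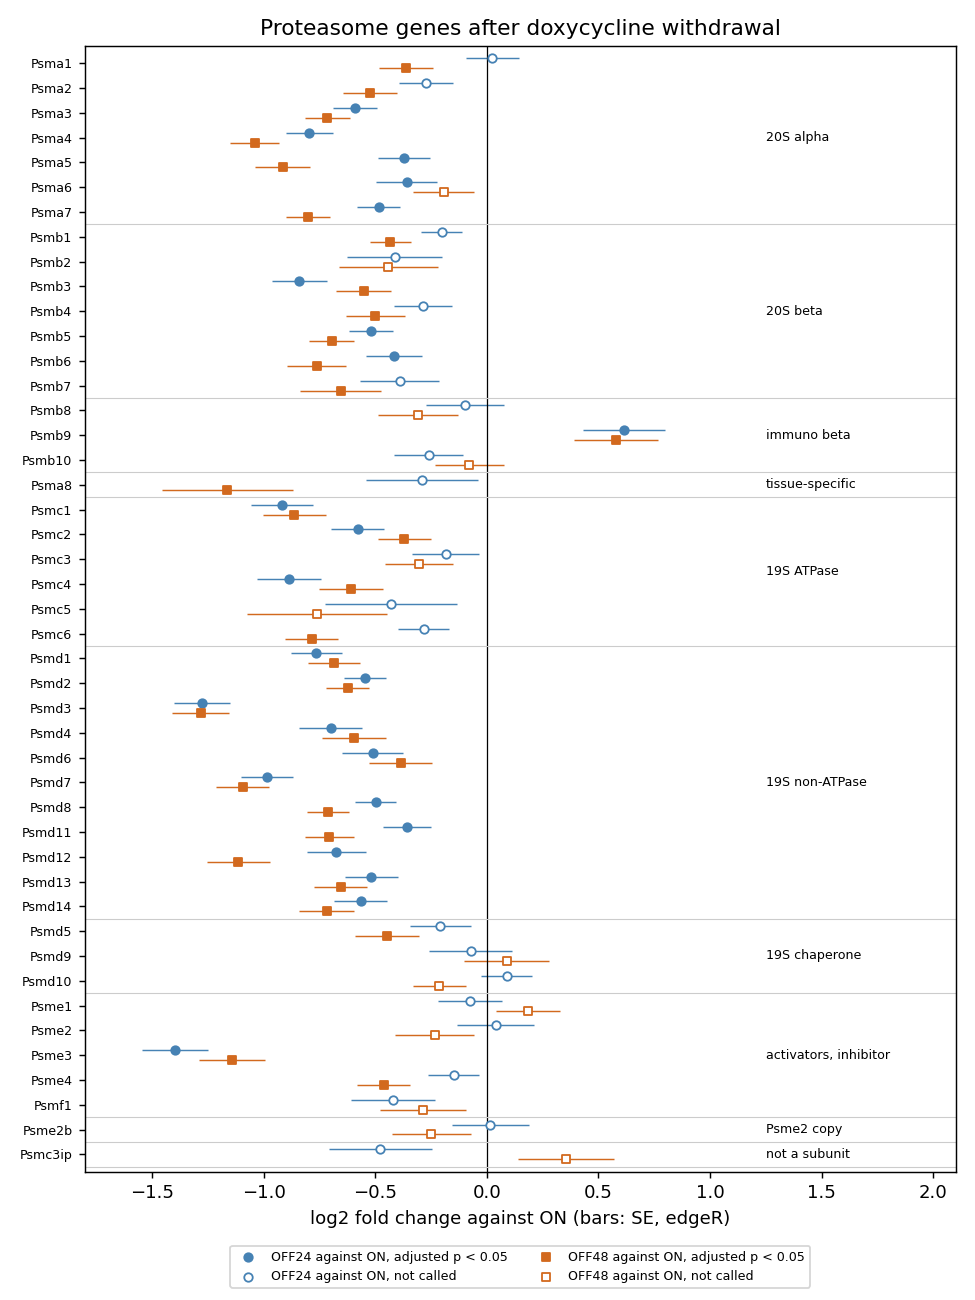
Log2 fold change of each of the 45 tested genes (rows, grouped by class) against ON on the horizontal axis, with bars for the SE from edgeR over 3 libraries a group; circles are OFF24, squares OFF48, and filled symbols passed the adjusted threshold of 0.05. All 11 non-ATPase subunits of the 19S particle lie below 0 at both times, and Psmb9 is the filled point above 0.

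The falls covered every non-ATPase subunit of the 19S particle in the table's Psm rows. These subunits build the ubiquitin-handling lid and the scaffold of the base. All 11 had fallen at 24 h and all 11 at 48 h, with medians of -0.56 and -0.71, and for each of them all 3 libraries of either OFF group lay below all 3 ON libraries. Psmd3, a lid subunit (ENSMUSG00000017221.14, chr11:98682554-98695979, plus strand of GRCm38, as for the positions that follow), stood at 474, 515 and 457 CPM in ON, 181, 199 and 216 CPM in OFF24 and 201, 242 and 159 CPM in OFF48. The OFF24 and OFF48 libraries lay in the same low range, far under ON. The fitted log2 change was -1.28 ± 0.13 (SE) at 24 h and -1.28 ± 0.13 at 48 h (edgeR, adjusted p = 3.44e-07 and 1.21e-07). Psmd7, the lid partner of the deubiquitinase Psmd14, read 157, 202 and 155 CPM in ON, 87.8, 85.1 and 87.3 CPM in OFF24 and 79.5, 80.2 and 81.3 CPM in OFF48. ON replicate 2 was the highest of its libraries, and both OFF groups were narrow and low. The log2 fold changes came to -0.99 ± 0.11 and -1.09 ± 0.12 (edgeR, adjusted p = 2.44e-06 and 3.26e-07). Psmd14 itself, which cuts ubiquitin chains from the substrate, fell, with log2 fold changes of -0.56 ± 0.12 and -0.72 ± 0.12.

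Psmd12, another lid subunit, stood at 75.0, 83.0 and 78.0 CPM in ON, 49.7, 41.4 and 56.6 CPM in OFF24 and 33.2, 32.2 and 41.7 CPM in OFF48. Its levels stepped down at each time on the means, and OFF24 and OFF48 met at 41.4 and 41.7 CPM. The log2 fold changes were -0.67 ± 0.13 and -1.11 ± 0.14 (edgeR, adjusted p = 6.07e-04 and 2.70e-06). For the lid subunit Psmd11 the levels were 207, 180.3 and 221 CPM in ON, 173, 144 and 157 CPM in OFF24 and 131, 117 and 123 CPM in OFF48, with no overlap between any pair of groups. The fit gave log2 fold changes of -0.36 ± 0.11 and -0.71 ± 0.11 (edgeR, adjusted p = 0.0142 and 3.38e-05). The call at 24 h is lost without ON replicate 3 or OFF24 replicate 2 and in the authors' log2 table, with an adjusted p of up to 0.0942. The base scaffold subunits Psmd1 and Psmd2, which hold ubiquitin receptors and shuttle factors, fell, to log2 fold changes of -0.76 ± 0.11 and -0.54 ± 0.09 at 24 h and -0.68 ± 0.12 and -0.62 ± 0.10 at 48 h. The ubiquitin receptor Psmd4 had log2 fold changes of -0.70 ± 0.14 and -0.60 ± 0.14. Psmd6, Psmd8 and Psmd13, lid subunits, ranged from -0.52 to -0.50 at 24 h and from -0.71 to -0.39 at 48 h. Of these, Psmd6 at 48 h loses its call without ON replicate 2 or 3, or OFF48 replicate 1 or 3, and with DESeq2 or the authors' log2 table (adjusted p up to 0.166).

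**Figure D2:**
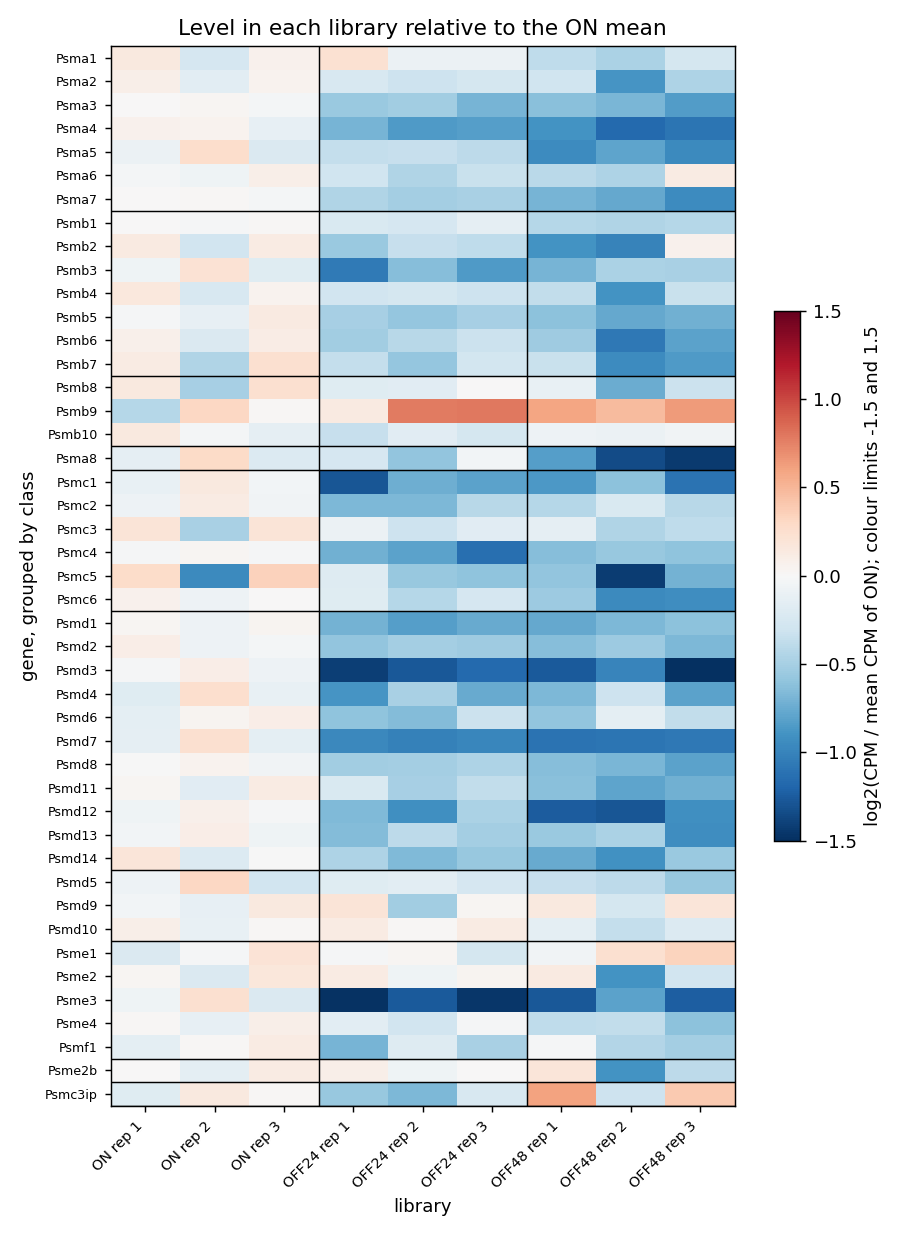
Level of each of the 45 tested genes in each of the 9 libraries as log2(CPM / mean CPM of the ON libraries), blue below and red above the ON mean, rows grouped by class. The rows of the 19S non-ATPase subunits are blue in all 6 OFF libraries, while ON replicate 2 and OFF48 replicate 2 are both low for Psmc5.

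The 6 ATPases, which form the unfolding ring of the 19S base, were all lower on the fitted means, but fewer passed the test. At 24 h 3 of the 6 had fallen (Psmc1, Psmc2 and Psmc4) and at 48 h 4 (also Psmc6), with medians of -0.50 and -0.68. Without ON replicate 2 and OFF48 replicate 2, all 6 had fallen at both times. Psmc1 (ENSMUSG00000021178.9, chr12:100110154-100123405, plus strand) stood at 305, 364 and 319.9 CPM in ON, 135, 198 and 188 CPM in OFF24 and 181, 214 and 153 CPM in OFF48. Every OFF library lay below every ON library, and its log2 fold changes were -0.92 ± 0.14 and -0.86 ± 0.14 (edgeR, adjusted p = 6.72e-05 and 6.75e-05). The levels of Psmc4 were 40.8, 42.0 and 40.8 CPM in ON, 25.1, 23.5 and 18.8 CPM in OFF24 and 26.5, 27.7 and 27.1 CPM in OFF48. They were nearly equal within ON and within OFF48, and every OFF library was below ON. This gave log2 fold changes of -0.89 ± 0.14 and -0.61 ± 0.14 (edgeR, adjusted p = 9.17e-05 and 0.00167).

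Psmc6 had 199, 181 and 191 CPM in ON, 167, 142 and 160.3 CPM in OFF24 and 131, 98.2 and 99.7 CPM in OFF48, 3 levels with no overlap. Its log2 fold change was -0.28 ± 0.11 at 24 h, which missed the threshold (edgeR, adjusted p = 0.0618), and -0.79 ± 0.12 at 48 h (adjusted p = 2.25e-05). At 24 h it passed in 9 of the 19 alternatives run, among them that without ON replicate 2 and OFF48 replicate 2 (-0.34, adjusted p = 0.0159). Psmc2 fell, with log2 fold changes of -0.58 ± 0.12 and -0.37 ± 0.12; its call at 48 h is lost without ON replicate 2 or OFF48 replicate 1 or 3 (adjusted p up to 0.0592). Psmc3 and Psmc5 were the ATPases called at neither time. Psmc5 had 41.6, 17.7 and 43.7 CPM in ON, 30.1, 23.2 and 22.6 CPM in OFF24 and 22.8, 12.7 and 21.0 CPM in OFF48. ON replicate 2 and OFF48 replicate 2 were both low, so the groups overlapped. The fitted log2 change was -0.43 ± 0.30 at 24 h and -0.76 ± 0.31 at 48 h (edgeR, adjusted p = 0.285 and 0.0649). Without those 2 libraries it was -0.79 and -0.96 (adjusted p = 3.52e-04 and 8.02e-05). Psmc3 moved from -0.18 ± 0.15 and -0.31 ± 0.15, both not called, to -0.40 and -0.45 without them (adjusted p = 0.00297 and 0.00167). With the replicate number as a block, the values at 48 h were -0.82 for Psmc5 and -0.31 for Psmc3 (edgeR, adjusted p = 7.38e-04 and 0.0174).

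In the alpha ring of the 20S core, which closes the channel and docks the activators, 5 of 7 subunits had fallen at 24 h and 6 of 7 at 48 h, with medians of -0.37 and -0.71. Psma4 (ENSMUSG00000032301.13, chr9:54950790-54958030, plus strand) had 174, 174 and 154 CPM in ON, 103, 92.6 and 94.4 CPM in OFF24 and 89.9, 74.2 and 78.1 CPM in OFF48. All OFF libraries lay far below ON, and every OFF48 library below every OFF24 library. Fitted log2 fold changes were -0.79 ± 0.11 and -1.04 ± 0.11 (edgeR, adjusted p = 1.32e-05 and 2.92e-07). Psma3 had 193, 196 and 188 CPM in ON, 131, 134 and 118 CPM in OFF24 and 125, 120.0 and 108 CPM in OFF48, with ON apart from both OFF groups. On the log2 scale the changes were -0.59 ± 0.10 and -0.71 ± 0.10, with adjusted p of 1.61e-04 and 1.22e-05 by edgeR. The levels of Psma7 were 352, 355 and 343 CPM in ON, 256, 246 and 249 CPM in OFF24 and 216, 206 and 181 CPM in OFF48, which fall into 3 separate ranges. The log2 fold changes came to -0.48 ± 0.10 and -0.80 ± 0.10 (edgeR, adjusted p = 6.88e-04 and 1.78e-06).

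Psma5 read 142, 181 and 129.9 CPM in ON, 118, 118 and 115 CPM in OFF24 and 78.2, 87.0 and 77.6 CPM in OFF48, again without overlap, and with ON replicate 2 the highest. Its log2 fold change of -0.37 ± 0.12 at 24 h grew to -0.91 ± 0.12 at 48 h (edgeR, adjusted p = 0.0195 and 6.08e-06). The call at 24 h is lost without ON replicate 2 (-0.24, adjusted p = 0.104) or OFF24 replicate 3, without ON replicate 2 and OFF48 replicate 2 together (-0.24, adjusted p = 0.0601), and in the authors' log2 table. Psma1 and Psma2 were called at 48 h alone, with log2 fold changes of 0.03 ± 0.12 and -0.27 ± 0.12 at 24 h and -0.36 ± 0.12 and -0.52 ± 0.12 at 48 h. Psma2 passed at 24 h in 6 of the 19 alternatives, with -0.36 without that pair of libraries (adjusted p = 0.0021). Psma1 at 48 h misses the threshold without ON replicate 1 or 3, without OFF48 replicate 1 or 2, and in the authors' log2 table (adjusted p up to 0.108). Psma6 was called at 24 h alone (-0.36 ± 0.14, edgeR adjusted p = 0.0469, and -0.19 ± 0.14 at 48 h). That call is lost when any of the 3 OFF24 libraries or ON replicate 1 or 3 is left out, and with upper quartile scaling, DESeq2 or the authors' log2 table. At 48 h OFF48 replicate 3, at 91.6 CPM, was above all ON libraries, and without it the log2 fold change was -0.42 (adjusted p = 0.0141). Psma8 replaces Psma7 in the proteasomes of the testis and was low here, at 8.67, 11.5 and 8.23 CPM in ON, 7.94, 6.28 and 9.23 CPM in OFF24 and 5.37, 3.75 and 3.50 CPM in OFF48. Its OFF48 libraries lay below all others, with a log2 fold change of -1.16 ± 0.29 (edgeR, adjusted p = 0.00301), against -0.29 ± 0.25 at 24 h (adjusted p = 0.39).

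The constitutive beta ring had 3 of 7 subunits fallen at 24 h (Psmb3, Psmb5 and Psmb6) and 6 of 7 at 48 h, with medians of -0.41 and -0.55. Without ON replicate 2 and OFF48 replicate 2, all 7 had fallen at 24 h and 6 at 48 h. The values at 24 h without them were -0.23 for Psmb1, -0.57 for Psmb2 and -0.41 for Psmb4 (edgeR, adjusted p = 0.045, 0.024 and 6.34e-04). Psmb3, a structural subunit, had 259, 314 and 239 CPM in ON, 129.6, 173 and 149.8 CPM in OFF24 and 167, 194 and 194 CPM in OFF48. Each OFF library was below each ON library, and its log2 fold changes were -0.84 ± 0.12 and -0.55 ± 0.12 (edgeR, adjusted p = 3.46e-05 and 0.0011). The structural subunit Psmb1 stood at 326, 322 and 329 CPM in ON, 278, 273 and 297 CPM in OFF24 and 243, 238 and 243 CPM in OFF48, narrow groups in 3 descending steps. Its log2 fold changes of -0.20 ± 0.09 and -0.43 ± 0.09 were past the threshold at 48 h alone (edgeR, adjusted p = 0.0909 and 7.31e-04). Psmb4, another structural subunit, likewise passed at 48 h alone, with -0.28 ± 0.13 and -0.50 ± 0.13; in the authors' log2 table its adjusted p at 48 h was 0.0507. Psmb2 had 41.3, 30.7 and 40.8 CPM in ON, 25.5, 29.5 and 28.9 CPM in OFF24 and 20.1, 18.7 and 39.4 CPM in OFF48, and OFF48 replicate 3 was the highest of its group. It was not called, with log2 fold changes of -0.41 ± 0.21 and -0.44 ± 0.22. At 48 h it was called without OFF48 replicate 3 (-0.92, adjusted p = 0.00109), without ON replicate 2 (-0.57, adjusted p = 0.0437), and when genes of low count were kept in the fit. With the replicate number as a block, Psmb2 fell at 48 h, with a log2 fold change of -0.50 (edgeR, adjusted p = 0.0218).

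All 3 constitutive catalytic subunits were lower at 48 h. Psmb5, the chymotrypsin-like subunit that bortezomib blocks (ENSMUSG00000022193.7, chr14:54614119-54618022, minus strand), stood at 402, 376 and 446 CPM in ON, 289, 274 and 289.8 CPM in OFF24 and 267, 240.0 and 247 CPM in OFF48. The 3 groups did not overlap, and its log2 fold changes were -0.52 ± 0.10 and -0.70 ± 0.10 (edgeR, adjusted p = 4.36e-04 and 1.19e-05). Psmb6, the caspase-like subunit (ENSMUSG00000018286.6, chr11:70525367-70527858, plus strand), had 142, 116 and 145 CPM in ON, 93.2, 100.4 and 107 CPM in OFF24 and 92.6, 63.7 and 76.7 CPM in OFF48. Its groups also lay in separate descending ranges. The log2 fold changes were -0.42 ± 0.13 and -0.76 ± 0.13 (edgeR, adjusted p = 0.0152 and 8.78e-05). At 24 h the call is lost without ON replicate 1 or 3 or OFF24 replicate 1, and in the authors' log2 table (adjusted p up to 0.111). Psmb7, the trypsin-like subunit (ENSMUSG00000026750.6, chr2:38588036-38644087, minus strand), read 150.5, 101 and 163 CPM in ON, 108, 92.3 and 114 CPM in OFF24 and 109.7, 72.0 and 77.0 CPM in OFF48. ON replicate 2 was as low as the OFF libraries, so the groups overlapped. Its log2 fold change of -0.39 ± 0.18 at 24 h was not called and that of -0.66 ± 0.18 at 48 h was (edgeR, adjusted p = 0.102 and 0.00849). Without OFF48 replicate 3 the adjusted p at 48 h was 0.0591, and without ON replicate 2 and OFF48 replicate 2 the log2 fold change at 24 h was -0.60 (adjusted p = 6.46e-04).

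None of the 3 immunoproteasome subunits was called lower at either time, and Psmb9 was higher. Psmb9, the counterpart of Psmb6 (ENSMUSG00000096727.3, chr17:34181987-34187764, minus strand), had 24.5, 40.8 and 33.3 CPM in ON, 36.0, 56.5 and 56.9 CPM in OFF24 and 49.3, 45.7 and 51.0 CPM in OFF48. ON replicate 1 was the lowest library, OFF24 replicate 1 lay within the ON range, and all 3 OFF48 libraries were above ON. Its log2 fold change was 0.62 ± 0.18 at 24 h and 0.58 ± 0.19 at 48 h (edgeR, adjusted p = 0.014 and 0.0167). The rise rests on few libraries. Without ON replicate 1 it was 0.42 and 0.40 (adjusted p = 0.0951 and 0.097). The call at 24 h is also lost without OFF24 replicate 2 or 3 (adjusted p = 0.0827 and 0.0914), and that at 48 h without OFF48 replicate 1 or 3 (adjusted p = 0.0503 and 0.0636). In the authors' log2 table, limma gave an adjusted p of 0.0829 and 0.0792.

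Psmb8, the counterpart of Psmb5 (ENSMUSG00000024338.15, chr17:34197721-34201454, plus strand), stood at 57.1, 36.6 and 61.2 CPM in ON, 45.6, 45.8 and 51.8 CPM in OFF24 and 48.0, 30.7 and 41.4 CPM in OFF48. ON replicate 2 and OFF48 replicate 2 were the lowest of their groups, and the groups overlapped. Its log2 fold change of -0.10 ± 0.17 at 24 h had a 95% interval of -0.46 to 0.27, and that of -0.31 ± 0.18 at 48 h an interval of -0.69 to 0.07 (edgeR, adjusted p = 0.699 and 0.172). At 48 h this missing call depends on the handling of the libraries. With the replicate number as a block Psmb8 fell, with a log2 fold change of -0.34 (edgeR, adjusted p = 0.0418), and without ON replicate 2 and OFF48 replicate 2 the value was -0.41 (adjusted p = 0.0209). Without ON replicate 2 alone it was also called lower at 48 h (edgeR, adjusted p = 0.00882). Psmb10, the counterpart of Psmb7 (ENSMUSG00000031897.9, chr8:105935735-105938444, minus strand), had 26.5, 23.6 and 21.8 CPM in ON, 18.8, 21.3 and 20.0 CPM in OFF24 and 22.8, 22.5 and 23.0 CPM in OFF48. The OFF24 libraries lay just below ON and the OFF48 libraries within its range. The log2 fold changes were -0.26 ± 0.15 (95% interval -0.58 to 0.06) and -0.08 ± 0.16 (-0.40 to 0.25), not called at either time (edgeR, adjusted p = 0.2 and 0.712).

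**Figure D3:**
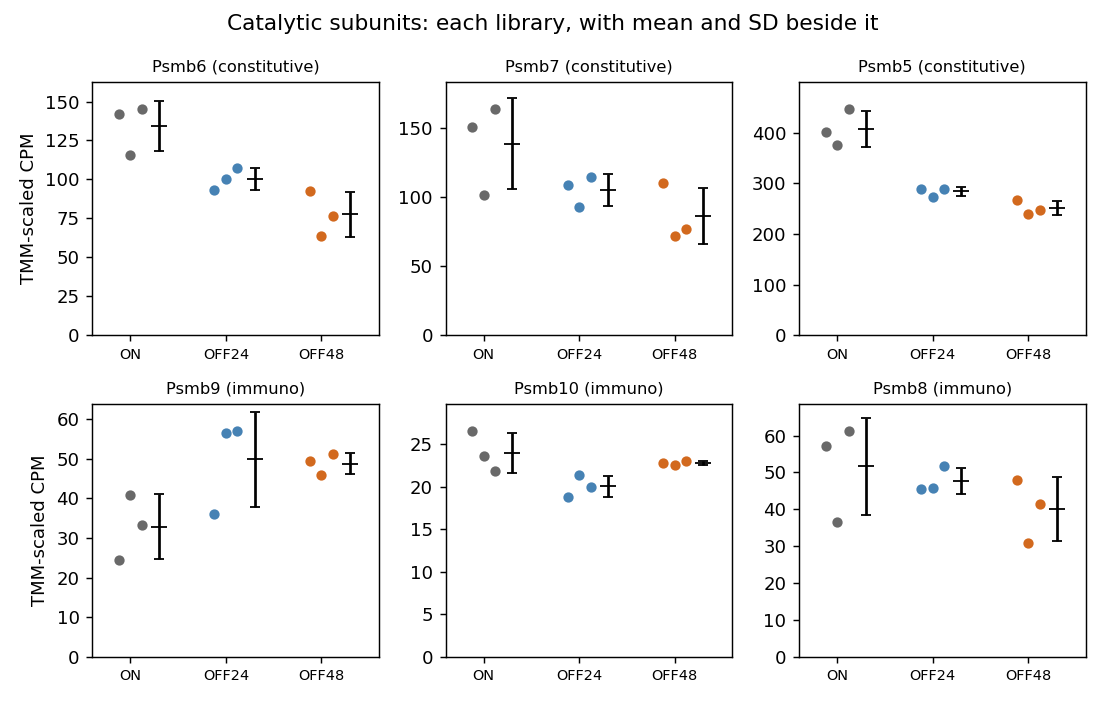
TMM-scaled CPM (vertical axes, each from 0) of the 3 constitutive catalytic subunits above and their immunoproteasome counterparts below, with a point for each of 3 libraries in ON, OFF24 and OFF48 and the mean and SD beside them. The OFF points of Psmb5 and Psmb6 lie below all ON points, while the OFF48 points of Psmb9 lie above them.

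The difference in log2 CPM between each immunoproteasome subunit and the constitutive subunit it replaces shows how the pair moved within a library. It compares the change between groups, not the amounts of the pair. For Psmb9 minus Psmb6 it was -2.54, -1.51 and -2.12 in ON, -1.37, -0.83 and -0.91 in OFF24 and -0.91, -0.48 and -0.59 in OFF48. Every OFF library lay above every ON library, and the mean shifted by 1.02 at 24 h and 1.40 at 48 h. For Psmb8 minus Psmb5 the values were -2.81, -3.36 and -2.87 in ON, -2.67, -2.58 and -2.48 in OFF24 and -2.48, -2.96 and -2.58 in OFF48. OFF24 lay above ON in all libraries, while OFF48 replicate 2 fell into the ON range; the mean shifts were 0.44 and 0.34. For Psmb10 minus Psmb7 the values were -2.50, -2.10 and -2.90 in ON, -2.52, -2.11 and -2.52 in OFF24 and -2.27, -1.68 and -1.74 in OFF48. These groups overlapped, with mean shifts of 0.12 and 0.61. The differences are descriptions and were not tested.

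**Figure D4:**
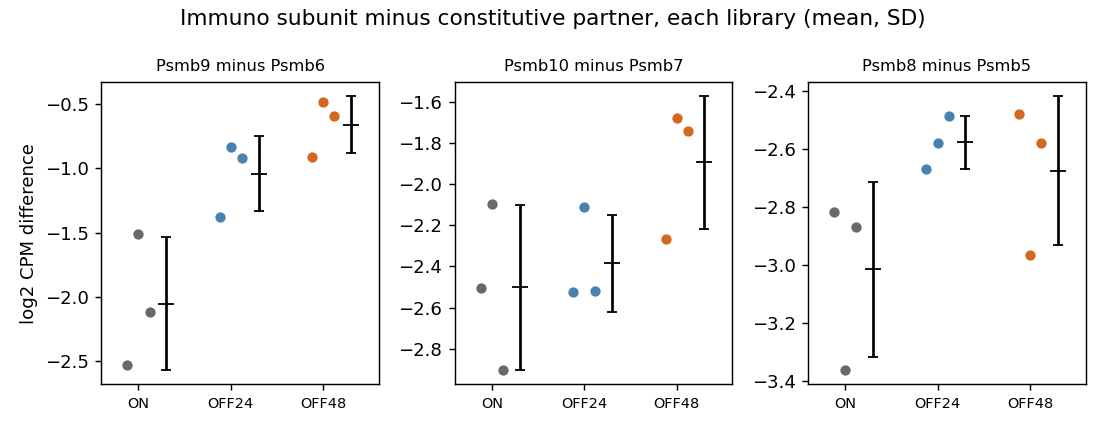
Log2 CPM of each immunoproteasome subunit minus that of the constitutive subunit it replaces (vertical axes, log2 units, scales differ and do not start at 0), a point per library with the mean and SD beside the 3 libraries of ON, OFF24 and OFF48. For Psmb9 minus Psmb6 all 6 OFF points lie above the ON points; for Psmb10 minus Psmb7 the groups overlap.

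Among the alternative activators, which open the core without ubiquitin, Psme3 fell at both times, and Psme1 and Psme2 were not called. Psme3, the subunit of the nuclear activator PA28 gamma (ENSMUSG00000078652.9, chr11:101316213-101323537, plus strand), had 82.4, 102 and 74.1 CPM in ON, 30.9, 36.1 and 31.3 CPM in OFF24 and 35.6, 49.5 and 36.4 CPM in OFF48. Every OFF library was below every ON library. The fit gave log2 fold changes of -1.40 ± 0.15 and -1.14 ± 0.15 (edgeR, adjusted p = 8.31e-07 and 4.08e-06). Psme1 and Psme2 form the interferon-inducible activator PA28. Psme1 stood at 42.6, 49.1 and 57.3 CPM in ON, 48.9, 50.5 and 41.4 CPM in OFF24 and 48.0, 58.5 and 62.4 CPM in OFF48, with overlapping groups and log2 fold changes of -0.08 ± 0.14 (95% interval -0.37 to 0.22) and 0.19 ± 0.14 (-0.11 to 0.49), neither called (edgeR, adjusted p = 0.715 and 0.301). Psme2 had 89.8, 75.9 and 99.1 CPM in ON, 96.2, 84.4 and 90.8 CPM in OFF24 and 97.0, 47.2 and 72.6 CPM in OFF48, where OFF48 replicate 2 was the lowest library and the groups overlapped. This gave log2 fold changes of 0.04 ± 0.17 (-0.32 to 0.40) and -0.23 ± 0.18 (-0.61 to 0.14), not called (edgeR, adjusted p = 0.881 and 0.295). Without OFF48 replicate 1 the value at 48 h was -0.49 (adjusted p = 0.024). Its copy Psme2b gave 0.02 ± 0.17 and -0.25 ± 0.18.

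Psme4, the nuclear activator PA200, had 107, 97.5 and 113 CPM in ON, 94.9, 86.6 and 105 CPM in OFF24 and 81.2, 81.7 and 69.1 CPM in OFF48. OFF24 overlapped ON, and OFF48 lay below both. Fitted log2 fold changes were -0.15 ± 0.11, not called, and -0.46 ± 0.12, called (edgeR, adjusted p = 0.326 and 0.00316). The inhibitor Psmf1 had 18.4, 20.6 and 22.2 CPM in ON, 12.5, 17.9 and 14.6 CPM in OFF24 and 20.1, 15.0 and 14.3 CPM in OFF48. Its OFF24 libraries lay below ON and its OFF48 libraries overlapped it, and it was not called at -0.42 ± 0.19 and -0.29 ± 0.19 (edgeR, adjusted p = 0.0928 and 0.237). Of the chaperones that assemble the 19S base, Psmd5 had 70.1, 91.6 and 60.5 CPM in ON, 65.2, 66.2 and 62.3 CPM in OFF24 and 58.4, 56.2 and 50.1 CPM in OFF48. Its OFF48 libraries lay below all ON libraries, and it fell at 48 h (-0.45 ± 0.14, edgeR adjusted p = 0.0139) and was not called at 24 h (-0.21 ± 0.14). The call is lost without ON replicate 2 or OFF48 replicate 3, without ON replicate 2 and OFF48 replicate 2 together (-0.28, adjusted p = 0.0923) and in the authors' log2 table (adjusted p up to 0.105). Psmd10, also known as gankyrin, had 64.0, 56.0 and 60.8 CPM in ON, 65.6, 60.9 and 65.8 CPM in OFF24 and 54.7, 47.2 and 52.5 CPM in OFF48. Its OFF48 libraries lay below the rest, and it was not called at 0.09 ± 0.11 and -0.21 ± 0.12. Psmd9 was not called either, at -0.07 ± 0.19 and 0.09 ± 0.19.

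Between 24 and 48 h, 6 of the 45 genes fell and 1 rose, while 11.2% of all tested genes fell and 9.99% rose, 21.1% in either direction. In 16 of the 45 genes all OFF48 libraries lay below all OFF24 libraries (19.8% of tested genes) and in 2, Psmb10 and Psmc4, above them (18.2%). Those that fell were the alpha subunits Psma1 (-0.39 ± 0.12), Psma5 (-0.54 ± 0.13) and Psma7 (-0.32 ± 0.10), the ATPase Psmc6 (-0.50 ± 0.12) and the lid subunits Psmd11 (-0.35 ± 0.11) and Psmd12 (-0.44 ± 0.15), all as log2 fold changes. Their adjusted p by edgeR ran from 0.00409 for Psma5 to 0.0406 for Psmd12. Without ON replicate 1 or OFF48 replicate 2 the count was 3, and without OFF24 replicate 1 or 3 or in the authors' log2 table it was 2. It was 11 with upper quartile scaling and 10 with the replicate number as a block. Without ON replicate 2 and OFF48 replicate 2, Psmd12 lost its call (-0.37, adjusted p = 0.0757) and Psme4 gained one (-0.33, adjusted p = 0.0417). Psma5 and Psmc6 kept the call in all alternatives run. The gene that rose was Psmc3ip, which is no subunit: its levels were 11.5, 14.5 and 13.2 CPM in ON, 8.78, 8.16 and 11.0 CPM in OFF24 and 19.8, 10.5 and 17.2 CPM in OFF48. OFF48 replicate 2 lay within the OFF24 range, and the log2 fold change of 0.83 ± 0.23 (edgeR, adjusted p = 0.0153) loses its call without OFF24 replicate 2 or OFF48 replicate 1 and with DESeq2 or the authors' log2 table. Against ON at 48 h it was 0.35 ± 0.22, not called, and 0.58 without ON replicate 2 and OFF48 replicate 2 (adjusted p = 0.0443).

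Counts of the pathway lists that follow stand beside the same shares of all tested genes, 17.4% fallen and 17.8% risen at 24 h and 23.9% and 23.4% at 48 h. Of 6 tested genes in a list of factors for 20S assembly and related steps, 2 had fallen at 24 h (Psmg2 and Psmg3). At 48 h 4 had fallen, also Psmg1 and Akirin2, which carries proteasomes into the nucleus rather than building the core. Psmg3, a chaperone of the alpha ring, fell, with log2 fold changes of -0.90 ± 0.12 and -1.07 ± 0.13 (edgeR, adjusted p = 1.80e-05 and 1.43e-06). Pomp, which matures the beta ring, had 559, 385 and 671 CPM in ON, 547, 411 and 516 CPM in OFF24 and 471, 283 and 273 CPM in OFF48, with wide and overlapping groups. On the log2 scale the changes were -0.13 ± 0.25 and -0.64 ± 0.25 (edgeR, adjusted p = 0.715 and 0.058), and with the replicate number as a block the value at 48 h was -0.66 (adjusted p = 0.00562).

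A list of proteins that bind the 19S particle to receive or trim ubiquitin also held the lid subunit Sem1. Of its 13 tested genes, 9 had fallen and 1, Sem1, had risen at 24 h. At 48 h 7 had fallen and 2, Sem1 among them, had risen. The highest log2 fold change of the list at 48 h, 0.75, belonged to a gene other than Sem1. Log2 fold changes at 24 and 48 h were -0.83 ± 0.13 and -0.60 ± 0.13 for the receptor Adrm1, -0.72 ± 0.10 and -0.86 ± 0.11 for the deubiquitinase Usp14, and -0.74 ± 0.11 and -1.06 ± 0.11 for the shuttle factor Rad23b, all called. Sem1 is a small lid subunit whose symbol lies outside the Psm pattern, and it moved against the rest of the lid. It had 469.6, 465 and 472 CPM in ON, 665, 563 and 620.2 CPM in OFF24 and 768, 696 and 841 CPM in OFF48, in 3 separate ascending ranges. The log2 fold changes came to 0.39 ± 0.10 and 0.71 ± 0.10 (edgeR, adjusted p = 0.00455 and 8.64e-06). Of 6 genes for ubiquitin and its activating enzymes, 1 had fallen at 24 h (Uba1, -0.33 ± 0.10) and 2 at 48 h (Uba1, -0.35 ± 0.11, and Rps27a, -0.30 ± 0.10).

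The pair of transcription factors best known for driving proteasome genes moved in opposite directions by 48 h. Nfe2l1, also called NRF1, is released from the endoplasmic reticulum with the help of Vcp, Ngly1 and Ddi2 when proteasome activity falls short. It had 82.1, 78.1 and 98.4 CPM in ON, 54.3, 47.7 and 47.7 CPM in OFF24 and 48.6, 35.2 and 48.1 CPM in OFF48, with every OFF library below ON. The fit gave log2 fold changes of -0.79 ± 0.13 and -0.92 ± 0.14 (edgeR, adjusted p = 1.35e-04 and 1.61e-05). Vcp fell at both times (-0.46 ± 0.10 and -0.75 ± 0.10 in log2), and Ngly1 rose at 48 h (0.92 ± 0.27; 0.65 ± 0.27 at 24 h was not called). Nfe2l2, or NRF2, the factor of the antioxidant response, had 39.3, 35.1 and 31.8 CPM in ON, 43.1, 49.0 and 41.4 CPM in OFF24 and 60.7, 67.5 and 65.6 CPM in OFF48. Its ranges ascended without overlap, and the log2 fold change was 0.32 ± 0.13 at 24 h, not called, and 0.85 ± 0.13 at 48 h, called (edgeR, adjusted p = 0.0621 and 2.18e-05). Bach1, a repressor at antioxidant response elements, rose at 48 h (0.78 ± 0.16), and the small partner protein Maff fell at both times, with a log2 fold change of -0.95 ± 0.29 at 24 h and to between 0.750 and 1.01 CPM, too few counts for a fold, at 48 h. In all, 3 of the 9 genes of this list had fallen at each time, and 0 and 3 had risen at 24 and 48 h. Messenger RNA says nothing here of the release or stability of these proteins.

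**Figure D5:**
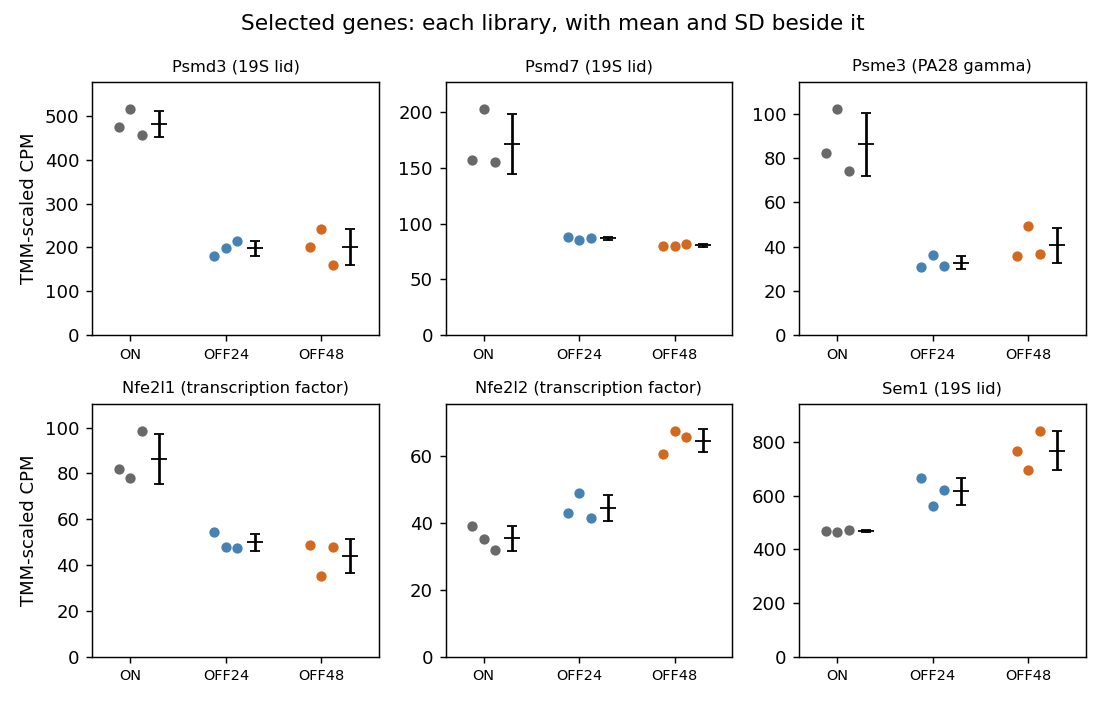
TMM-scaled CPM (vertical axes, each from 0) of the lid subunits Psmd3, Psmd7 and Sem1, the activator subunit Psme3 and the transcription factors Nfe2l1 and Nfe2l2, with a point for each library of ON, OFF24 and OFF48 and the mean and SD of 3 beside them. Psmd3, Psmd7, Psme3 and Nfe2l1 have all OFF points below ON, and Sem1 and Nfe2l2 have all OFF points above.

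Of 11 tested genes that act with the immunoproteasome in class I antigen presentation, 1 had fallen and 2 had risen at 24 h, and 3 had fallen and 2 had risen at 48 h. Among all tested genes 17.4% had fallen and 17.8% had risen at 24 h, and 23.9% and 23.4% at 48 h, and the list's own shares lie near these. Tap1, the peptide transporter, runs opposite to Psmb9 on the other strand, with starts 211 bases apart and overlapping 5' ends in the GENCODE annotation. It had 23.7, 20.6 and 22.5 CPM in ON, 23.0, 24.2 and 21.1 CPM in OFF24 and 17.1, 21.7 and 21.3 CPM in OFF48, and all groups overlapped. This gave log2 fold changes of 0.03 ± 0.16 (95% interval -0.30 to 0.36) and -0.17 ± 0.17 (-0.52 to 0.18), not called (edgeR, adjusted p = 0.902 and 0.428). Of the inducers, Irf1 rose at 24 h (0.52 ± 0.13, edgeR adjusted p = 0.0054) and was not called at 48 h (0.28 ± 0.14). Irf8 rose at both times (1.13 ± 0.25 and 1.67 ± 0.24). The class I heavy chain H2-K1 fell at 48 h (-1.03 ± 0.11), and Tapbp, which loads peptides on it, rose (0.68 ± 0.16). Nlrc5, the class I transactivator, had at most 0.418 CPM and was not tested. Of 9 tested genes of the general interferon response, 2 had fallen at 24 h and 3 at 48 h and none had risen; Bst2 was among the fallen at both times (-0.83 ± 0.22 and -2.07 ± 0.26). The fallen counts are near the 17.4% and 23.9% of all tested genes.

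The promoters of 39 of the 46 genes, 250 bases before to 50 bases after the start in RefSeq on GRCm38.p6, were searched on both strands for short motifs. TGACNNNGC, the core of the antioxidant response element bound by NRF1 and NRF2, stood in 6 of the 39 (15.4%) and in 14.0% of 27025 genes. The core of the interferon-stimulated response element, TTTC, any 2 bases and TTTC again, stood in 4 (10.3%) against 3.99%. CACGTG, the E-box bound by MYC among others, stood in 4 (10.3%) against 8.09%, and CCAAT, bound by NF-Y, in 15 (38.5%) against 41.1%. Matches of these letters are a description and no sign of binding. The stretches below, 5' to 3' on the gene's strand with the motif in capitals, show the antioxidant element upstream of Psmb5, which fell, and of Psmd9, which was not called, and the E-box upstream of Psme3 and Psma4, which fell, and of Psmb10 and Psmd9, which were not called. The antioxidant element also stood in the windows of Psmb6, Psmc6, Psmd12 and Psme4, which had fallen at 48 h, so of its 6 genes Psmd9 alone was not called. Of all 45 tested proteasome genes 31 had fallen at 48 h, with or without the element, and of all tested genes 23.9%. All 4 genes with the E-box are shown. Whether either element has a part in the falls was not tested.
Psmb5: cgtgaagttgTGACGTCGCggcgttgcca
Psmd9 (antioxidant element): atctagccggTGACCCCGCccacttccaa
Psme3: ctgcgcagggCACGTGctcatcctcc
Psma4: ctgcacagtcCACGTGggcagactga
Psmb10: tcccaacgccCACGTGgtggcacgcc
Psmd9 (E-box): atctgaaaacCACGTGgtctatctag
On GRCm38 these lie at chr14:54618024-54618052, minus strand for Psmb5, at chr11:101316159-101316184, plus strand for Psme3 and at chr9:54950709-54950734, plus strand for Psma4. That of the immunoproteasome gene Psmb10 lies at chr8:105938493-105938518, minus strand, and those of Psmd9 lie at chr5:123228149-123228177, plus strand (antioxidant element) and chr5:123228129-123228154, plus strand (E-box). The promoter window of Psmb9 held none of these motifs other than CCAAT. This window, chr17:34187281-34187580, lies within the GENCODE extent of Psmb9, so RefSeq and GENCODE place the start of this gene differently.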

How the data were processed

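The authors deposited whole-number read counts per gene, not normalised, for 9 libraries made with a Lexogen QuantSeq kit, per the labels' protocols. They also deposited log2 expression values, which the table's name ascribes to voom and limma, used here as an alternative. Tools in the submitters' processing notes are featureCounts, Subread 1.5.0-p3, HISAT2 2.0.4, cutadapt 1.5, FastQC 0.11.2, bcl2fastq 2.17.1.14, limma 3.42.2 and R 3.6.1, with the build mm10. The sources used here do not give the annotation, the strand setting or the rule for multi-mapping reads, which bear on genes with copies or antisense partners.

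Groups came from the sample titles. The tests used edgeR 4.0.16 (R 4.3.3) with filterByExpr by group, TMM and a robust quasi-likelihood fit to all 9 libraries (6 residual degrees of freedom, common biological coefficient of variation of 0.105), and Benjamini-Hochberg adjustment over 10215 genes at 0.05. Replicates differed beyond counting noise, with a chi-square of 1.99 to 6.99 per degree of freedom, and each counted once. The SE is the log2 fold change divided by the root of the F statistic. Scripts were tested on simulated counts. Alternatives were RLE, upper quartile and library size scaling, no filter, DESeq2 1.42.0, limma-voom (limma 3.58.1), limma on the log2 table, the replicate number as a block, only the groups compared and leaving out each library. Leaving out ON replicate 2 and OFF48 replicate 2 together was added after seeing the data.

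Titles share replicate numbers across groups, with no stated meaning. Deviations of same-numbered libraries correlated at 0.115, 0.406 and 0.198 between ON and OFF48, all over 0.1, so a pairing is possible, from the data alone. The main tests did not model it, and the replicate number was a block only in an alternative. Libraries of different number also correlated, at 0.190 for ON replicate 3 with OFF48 replicate 1 and 0.124 for ON replicate 1 with OFF48 replicate 3. The remaining ON and OFF48 pairs of different number lay between -0.286 and -0.176. Same-numbered libraries correlated at 0.0762, 0.202 and 0.0360 between ON and OFF24, and at 0.0828, 0.177 and -0.0149 between OFF24 and OFF48, which were not taken as paired. With libraries of another number OFF24 replicate 2 correlated at -0.153 to -0.0755, so it also deviated with the replicates 2 of the other groups. OFF24 replicate 1 correlated at 0.111 with ON replicate 3 and at 0.122 with OFF48 replicate 3.

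Any proteasome gene could be named. Values per library are given for the catalytic subunits, Psme1, Psme2 and the 2 members of smallest p in each class and comparison, for fixed pathway genes, and for Psmb2, Psmc5 and Sem1, chosen after their values were seen. Members, classes and pathway lists were chosen with earlier results of these data known. A gene of the class I list is not reported here. Gene positions are from GENCODE M21 on GRCm38 (mm10) and promoters from RefSeq on GRCm38.p6. The last 400 bases of transcripts were compared to find copies.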

Additional observations from a re-analysis of the deposited data

Results flagged for a closer look

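For 7 of the 45 tested genes the changes at the 2 times differed by a test of that difference, the comparison of OFF48 with OFF24 (edgeR, adjusted p under 0.05). Of all tested genes 21.1% were called in this comparison, 11.2% fallen and 9.99% risen, so the share among these genes is not above the general one. On the log2 scale the difference was -0.39 for Psma1, -0.54 for Psma5, -0.32 for Psma7, -0.50 for Psmc6, -0.35 for Psmd11 and -0.44 for Psmd12, which were lower at 48 h than at 24 h. It was 0.83 for Psmc3ip, which is no proteasome subunit. In all 3 OFF48 libraries the levels of Psma1, Psma5, Psma7, Psmc6 and Psmd11 were below all OFF24 libraries, whereas those of Psmd12 and Psmc3ip overlapped.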

How the results depend on the processing

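No gene changed direction past the threshold under any alternative run. Fallen genes numbered 23 at 24 h (20 to 28 on leaving out a library) and 31 at 48 h (29 to 32). Between 24 and 48 h they numbered 6, and 2 to 6 on leaving out a library, 11 with upper quartile scaling and 2 in the authors' log2 table. The count of risen genes, 1 in each comparison, was 0 to 1 on leaving out a library and 0 in the authors' log2 table for all 3 comparisons. It was 2 at 48 h without ON replicate 2 and OFF48 replicate 2, and 0 between the times with DESeq2. With the replicate number as a block, fallen genes numbered 28, 35 and 10 in the 3 comparisons, and risen genes 1, 1 and 2. Against ON at 24 h the block added Psma2, Psmb2, Psmb4, Psmb7 and Psmc6, and at 48 h it added Psmb2, Psmb8, Psmc3 and Psmc5. It changed no other proteasome gene's call against ON. ON replicate 1 correlated best with OFF48 replicate 3, at 0.124, and not with its own number. Causes were not tested. Depth limits genes near the floor, such as Psma8 and Psmc3ip, most in OFF48 replicate 2, where 3 counts are 2.25 CPM.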
